A study of Rattus norvegicus with 7 samples.

Results

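The nuclear genes for respiratory complexes II to V and cytochrome c were followed in newborn rat heart muscle cells after transfection of 6 human microRNAs (miRNAs). The set was made of the protein-coding rows of the expression table whose symbol begins with Sdh, Uqcr or Atp5, or with Cox and a digit from 4 to 8, together with Cyc1 and Cycs. It held 52 rows under 49 distinct symbols, of 17141 genes listed. By role these were 4 subunit genes of complex II, 4 assembly factors of complex II (Sdhaf1 to Sdhaf4), 8 subunit genes of complex III, 2 rows of Cycs, 16 rows for complex IV, 16 rows for complex V, and Atp5s and Atp5sl, whose products are not subunits of the ATP synthase. In 51 rows the mean over the 7 libraries reached 1 RPKM (reads per unit of gene length and of library depth), and Cox6b2, at a mean of 0.887 RPKM, did not. The set was abundant: the median of the 52 means was 168 RPKM, and the highest, 1480 RPKM, was that of Atp5b.

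Ventricular cardiomyocytes of wild type Wistar rats at postnatal day 0 were used in all groups, and every group received a synthetic miRNA at 25 nM with RNA taken 72 h later. The 7 groups were cel-miR-67, a nematode miRNA used here as the control, and the human miRNAs (prefix hsa in the labels) miR-199a-3p, miR-1825, miR-33b*, miR-590-3p, miR-302d-3p and miR-373-3p, with 1 library each. With 1 library per group no difference has a replicate check and no p-value was computed, so higher and lower describe these libraries only. The cells were taken after a step on plastic that leaves other cell types behind but is not a sort, and in such bulk samples fewer cells of a type cannot be told apart from less RNA per cell.

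Complexes II to IV pass electrons from succinate and ubiquinol through cytochrome c to oxygen, and complex V, the ATP synthase, uses the proton gradient that complexes III and IV build up. Complex II is encoded by nuclear genes alone, whereas complexes III, IV and V combine nuclear subunits with a few made inside the mitochondrion. Several complex IV subunits exist in a form made in most tissues and a form of heart and skeletal muscle, and heart muscle takes on the muscle forms as it matures around birth. In rodents Cox6a2, Cox7a1 and Cox8b encode muscle forms, and Cox6a1, Cox7a2 and Cox8a the general forms.

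The results turn on the muscle forms, so the bases before their start sites are shown beside those of a general form. The 150 bases upstream of the annotated start are given on the gene's strand, which is the minus strand in all 3 cases, from RefSeq on build GRCr8. Capitals in Cox6a2, at chr1:192219717-192219866, mark the muscle E-box letters CAGCTG at -107 to -102 and a stretch at -50 to -41 that holds the MEF2 letters CTANNNNTA on both strands, overlapping by all but 1 base. Capitals in Cox8b, at chr1:205408274-205408423, mark CAGCTG at -100 to -95 and at -62 to -57 and, on the other strand, the SP1 letters GGGCGG at -49 to -44. Capitals in Cox8a, at chr1:213833624-213833773, mark the GABP letters CCGGAAG, on the other strand, at -57 to -51 and -19 to -13.
Cox6a2: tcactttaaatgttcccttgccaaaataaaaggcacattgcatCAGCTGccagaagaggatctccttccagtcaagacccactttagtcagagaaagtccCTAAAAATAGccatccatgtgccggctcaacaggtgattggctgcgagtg
Cox8b: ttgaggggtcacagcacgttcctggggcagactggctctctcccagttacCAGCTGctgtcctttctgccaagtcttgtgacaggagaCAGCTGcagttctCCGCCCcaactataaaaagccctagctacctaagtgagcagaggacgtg
Cox8a: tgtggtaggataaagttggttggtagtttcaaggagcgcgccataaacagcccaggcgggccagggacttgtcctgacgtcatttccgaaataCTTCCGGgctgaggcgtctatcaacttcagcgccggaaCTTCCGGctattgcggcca
A match is a description of these letters and does not show binding.

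Of the 49 symbols, 42 had an entry in the RefSeq promoter table, which spans 250 bases before to 50 bases after each start. The strings named next were searched on both strands, and the share of the 42 is given beside the share of all 33469 promoters of that length. The NRF-1 core GCGCATGCG was in 14.3% of the members' promoters against 1.52% of all. CCGGAAG, the letters of GABP (also called NRF-2), was in 38.1% against 8.75%, AANATGGC of YY1 in 33.3% against 6.96%, and AAGGTCA of the oestrogen-related receptors in 16.7% against 4.61%. These 4 strings belong to factors known for driving respiratory genes, and each was held by a larger share of the members' promoters than of all promoters. The SP1 letters GGGCGG were in 42.9% against 33.1%, the muscle E-box CAGCTG in 16.7% against 15.1%, and the MEF2 letters CTANNNNTA in 11.9% against 22.4%. Cox6a2 and Cox8b held none of the first 4 strings in the 300 bases, while Cox8a held CCGGAAG at 2 places, and AANATGGC and AAGGTCA at 1 place each.

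Of the 6 transfected human miRNAs, 1 had a rat namesake in the RefSeq table. It is shown as the agent of the library in which most members were lowest, with the seed (bases 2 to 8) in capitals, from build GRCr8, chr13:77116294-77116315, plus strand.
rno-miR-199a-3p: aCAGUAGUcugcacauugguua

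Changes below are log2((RPKM + 1)/(control RPKM + 1)), a scale on which low genes differ less than their levels do, and counts use a limit of 1.5-fold on that scale. All 6 comparisons use 1 control library, so an unusual value there enters all of them, and they are given side by side. After miR-199a-3p the members' median change was -0.49, 50 of 51 measured rows were below the control, and 14 were at least 1.5-fold lower (27.5%), against 5.55% of the 12330 genes whose mean reached 1 RPKM. The 14 hold both rows of Cox6b1, so that gene is counted more than once. With another scaling, to the reads of listed genes, 40 of the 51 rows were below the control and 4 were past the limit. After miR-1825 the median was -0.33 and 9 members were past the limit (17.6%), against 6.33% of all genes. After miR-33b* the median was -0.19 and 5 members were past it (9.80%), against 5.52%. After miR-590-3p the median was -0.13 and 1 member was past it (1.96%), against 3.49%. With miR-302d-3p and with miR-373-3p both medians were -0.01, and 1 member (1.96%) was past the limit in each, against 7.32% and 6.56% of all genes. The members' share was above the background after miR-199a-3p and miR-1825. The counts of 5 after miR-33b* and of 1 with each of the other 3 are too few to be read against it.

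No member was at least 1.5-fold higher in any of the 6 libraries, where the shares of all genes were 4.81% after miR-199a-3p, 5.94% after miR-1825, 5.17% after miR-33b*, 4.70% after miR-590-3p, 5.11% with miR-302d-3p and 4.83% with miR-373-3p. The median change of all measured genes was within 0.02 of 0 in every library. Against the 1114 genes whose mean reached 50 RPKM, which are closer to the members in level, the 38 members in that range had medians of -0.52 against -0.07 after miR-199a-3p, -0.33 against 0.03 after miR-1825, -0.20 against 0.02 after miR-33b* and -0.15 against -0.00 after miR-590-3p. After miR-302d-3p the values were -0.02 against 0.09, and after miR-373-3p -0.03 against 0.08. Scaled to the reads of listed genes instead, the median of all genes moved to 0.302, 0.115, 0.095, 0.011, 0.228 and 0.172 in the order miR-199a-3p, miR-1825, miR-33b*, miR-590-3p, miR-302d-3p and miR-373-3p, so changes are read relative to the median gene. On that scaling the members' medians were -0.14, -0.20, -0.07, -0.12, 0.24 and 0.17. The members at least 1.5-fold lower then numbered 4 in place of 14 with miR-199a-3p (7.84%, against 2.04% of all genes), 6 with miR-1825 (11.8% against 4.39%), 3 with miR-33b* (5.88% against 3.80%), 0 with miR-590-3p (against 3.15%), 1 with miR-302d-3p (1.96% against 4.04%) and 1 with miR-373-3p (1.96% against 3.82%). The members' share was again the larger with miR-199a-3p and miR-1825, but the count of 4 with miR-199a-3p is too few to be read against the background. The count of 6 with miR-1825 is small too. In the other libraries the counts of 3, 0, 1 and 1 are too few to be read against the background. Of the 38, 12 were at least 1.5-fold lower with miR-199a-3p and 5 with miR-1825, where 108 and 64 of the 1114 genes were. Both rows of Cox6b1 are among the 12.

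The 51 measured members varied among themselves. Of these, 16 were below the control in all 6 libraries, none was above it in all 6, and 33 had their lowest level of the 7 libraries with miR-199a-3p and 12 with miR-1825. Such counts move with the scaling: 12 members were below the control in all 6 libraries when scaled to reads outside the mitochondrial genome, and 4 when scaled to the reads of listed genes. The control library held the highest level of 16 members and the lowest of none. The SD of the change over members came to 0.29 after miR-199a-3p, 0.41 after miR-1825, 0.31 after miR-33b*, 0.20 after miR-590-3p, 0.37 with miR-302d-3p and 0.32 with miR-373-3p. The last 2 are raised by Cox8b, a row of few reads, at -2.39 and -1.85. The quartiles of the change there were -0.10 and 0.08 with miR-302d-3p and -0.13 and 0.06 with miR-373-3p. These spreads exceed counting error: the exact (Clopper-Pearson) 95% interval of a member's ratio of read rates extended by a median of 0.0627 to 0.0718 on the log2 scale to either side. Intervals cover counting error only and compare libraries, not conditions.

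**Figure D1:**
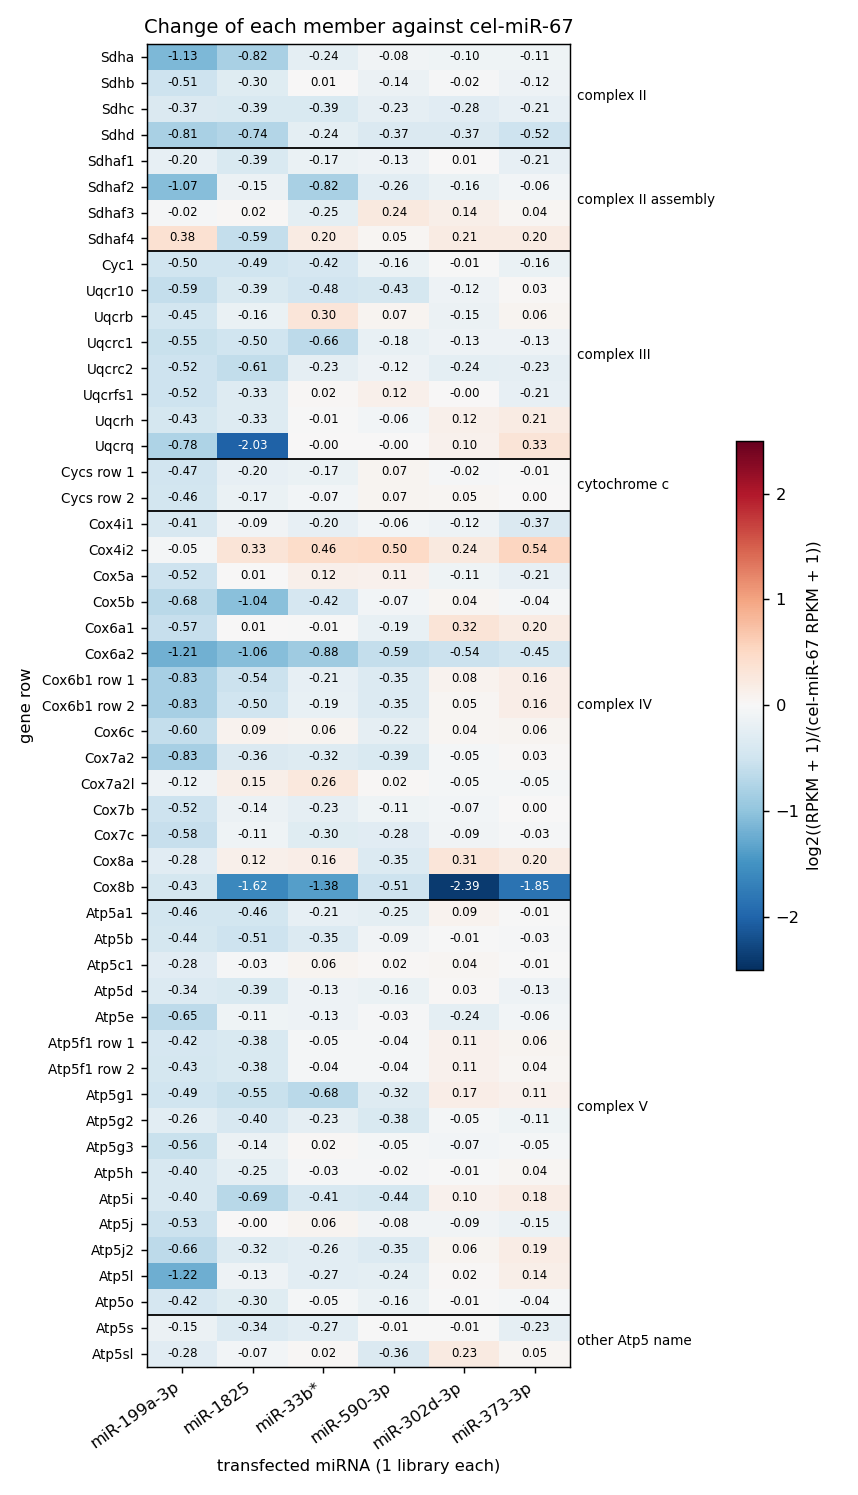
Change of each of the 51 measured rows (rows, grouped by role) after each of the 6 miRNAs (columns), as log2((RPKM + 1)/(cel-miR-67 RPKM + 1)), with 1 library per column. Blue is lower than the control and red higher; the miR-199a-3p column is below 0 in 50 of 51 rows, and the deepest blue cells are Cox8b after miR-302d-3p (-2.39) and Uqcrq after miR-1825 (-2.03, an uncertain row).

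The muscle form of subunit VIa was lower in all 6 miRNA libraries. Cox6a2 (ENSRNOG00000019851) stood at 515 RPKM in the control, 222 with miR-199a-3p, 246 with miR-1825, 279 with miR-33b*, 342 with miR-590-3p, 354 with miR-302d-3p and 378 with miR-373-3p. All 6 values lay below the control, the lowest being that after miR-199a-3p. The changes were -1.21, -1.06, -0.88, -0.59, -0.54 and -0.45 in the same order of miRNAs, and Cox6a2 was among the 3 lowest members after each of them. The counting intervals of these 6 log2 ratios, each from 2857 or more reads, all lay between -1.28 and -0.39.

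The general form Cox6a1 (ENSRNOG00000001170) stood at 289 RPKM in the control, 195 with miR-199a-3p, 290 with miR-1825, 287 with miR-33b*, 253 with miR-590-3p, 360 with miR-302d-3p and 332 with miR-373-3p. It was above the control with miR-302d-3p and miR-373-3p (0.32 and 0.20), within 0.01 of it after miR-1825 and miR-33b*, and below it after miR-199a-3p and miR-590-3p (-0.57 and -0.19). The ratio of the 2 forms does not depend on how a library was scaled. It was 1.78 in the cel-miR-67 library (interval 1.71 to 1.86) and 1.14, 0.848, 0.971, 1.35, 0.983 and 1.14 after the 6 miRNAs in the order above. The widest of the 6 intervals of these ratios ran from 1.29 to 1.41, after miR-590-3p, and none reached the interval of the control. On the log2 scale the ratio minus that of the control ran from -0.40 (miR-590-3p) to -1.07 (miR-1825). In the control Cox6a2 made up 64.0% of the RPKM of the pair, and after miR-1825 45.9%.

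The muscle form of subunit VIII showed the deepest difference of any member. Cox8b (ENSRNOG00000014656) stood at 24.1 RPKM in the control, 17.6 with miR-199a-3p, 7.14 with miR-1825, 8.66 with miR-33b*, 16.6 with miR-590-3p, 3.79 with miR-302d-3p and 5.93 with miR-373-3p. These rested on 174 reads in the control and 42 to 152 in the others. The values formed a higher set (the control, miR-199a-3p and miR-590-3p) and a lower set of the other 4 libraries, with no value between 8.66 and 16.6 RPKM. Without a pseudocount the log2 ratio of read rates was -2.66 after miR-302d-3p (interval -3.19 to -2.17), -2.02 after miR-373-3p (-2.48 to -1.58), -1.75 after miR-1825 (-2.20 to -1.32) and -1.47 after miR-33b* (-1.92 to -1.05). After miR-199a-3p and miR-590-3p it was -0.45 and -0.54, with intervals that ended at -0.13 and -0.20.

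The general form Cox8a (ENSRNOG00000021177) stood at 194 RPKM in the control, 160 with miR-199a-3p, 211 with miR-1825, 216 with miR-33b*, 152 with miR-590-3p, 241 with miR-302d-3p and 222 with miR-373-3p. In the 4 libraries where Cox8b was lowest, Cox8a was above the control, by 0.12 to 0.31. The ratio of Cox8b to Cox8a was 0.124 in the control (interval 0.106 to 0.145), 0.110 after miR-199a-3p (0.0928 to 0.130) and 0.109 after miR-590-3p (0.0904 to 0.130), which overlap. It was 0.0338 after miR-1825, 0.0401 after miR-33b*, 0.0158 with miR-302d-3p and 0.0267 with miR-373-3p, and none of these 4 intervals ran above 0.0516. Cox8b was thus 11.0% of the RPKM of the pair in the control and 1.55% after miR-302d-3p. The muscle form Cox7a1 named beside Cox6a2 for this comparison was not analysed here, since the rule matched no row of that symbol.

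**Figure D2:**
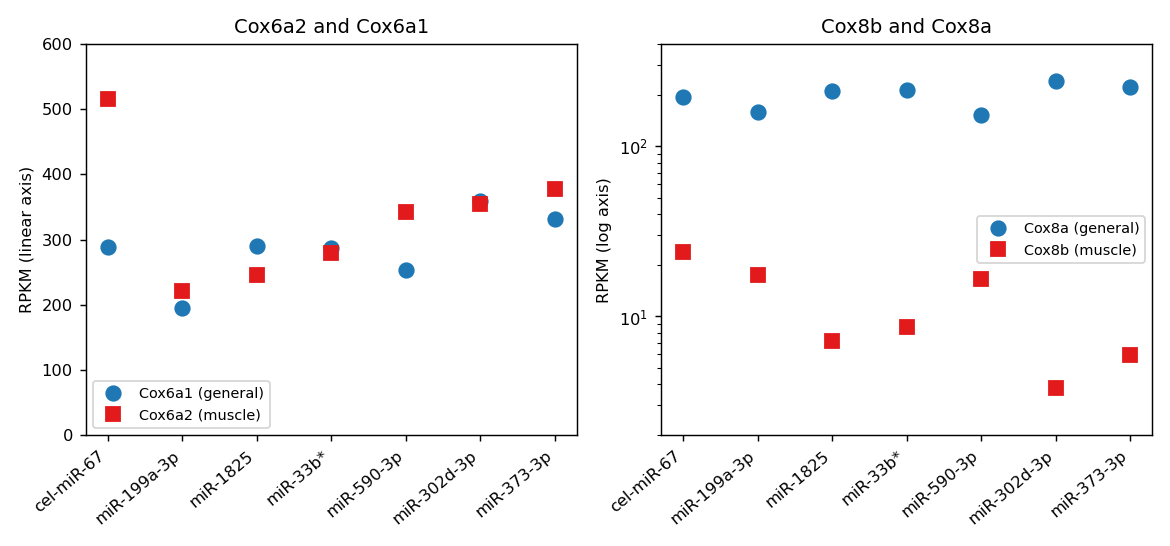
RPKM of the muscle form (red squares) and the general form (blue circles) in each of the 7 libraries, for Cox6a2 and Cox6a1 on a linear axis from 0 and for Cox8b and Cox8a on a log axis. Cox6a2 is highest in the control at 515 RPKM, and Cox8b is at 8.66 RPKM or less in 4 miRNA libraries while Cox8a stays between 152 and 241.

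**Figure D3:**
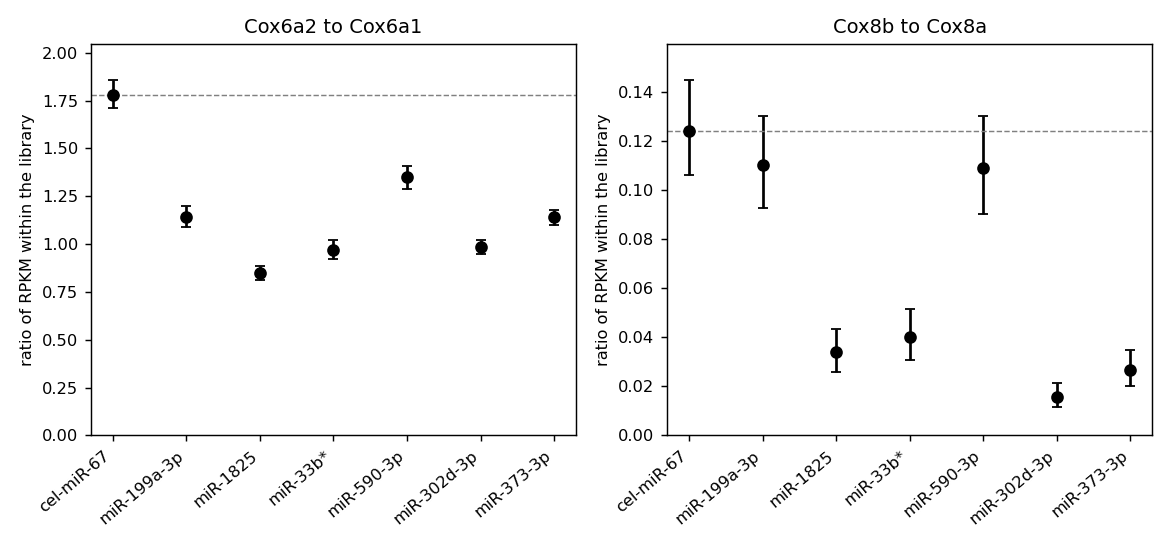
Ratio of the muscle form's RPKM to the general form's within each library (points), with exact 95% intervals for counting error (bars) and the control's ratio as a dashed line. All 6 ratios of Cox6a2 to Cox6a1 lie below the control's 1.78, and 4 of the 6 ratios of Cox8b to Cox8a lie below its interval.

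Marker genes of cell types were read beside the isoforms. The 11 of 12 cardiomyocyte markers found in the table summed to 21684 RPKM in the control and 16716 (miR-199a-3p) to 20927 (miR-33b*) in the miRNA libraries, with median changes of -0.37, -0.32, -0.06, -0.43, -0.09 and -0.15 in the order used above. These markers were thus present at high levels in every library and, on the scaling of the deposited values, lower in sum in all 6 than in the control. The sums were taken on that scaling alone. Scaled to the reads of listed genes the median gene moved by 0.228 with miR-302d-3p, so sums near the control could pass it. Side by side with these medians, the log2 ratio of Cox6a2 to Cox6a1 minus that of the control was -0.64, -1.07, -0.87, -0.40, -0.86 and -0.64. The 3 of 9 skeletal muscle markers found (Ckm, Acta1 and Myh1) summed to 737 RPKM in the control and 621 to 966 in the others, with Myh1 under 1 RPKM. All 9 fibroblast markers were found and summed to 837 RPKM in the control and 556 to 797 in the others. The 7 smooth muscle and pericyte markers summed to 772 and 774 to 1192 RPKM, so genes known as markers of other cell types were detected too. Newborn cardiomyocytes are themselves known to express some of these, such as Acta2. The 7 of 8 endothelial markers summed to 22.3 and 14.0 to 17.5 RPKM, with Cdh5, Tie1 and Vwf under 1, the 7 macrophage markers to 16.1 and 8.55 to 14.7 RPKM, and the 5 of 6 erythroid markers to 7.75 and 5.40 to 13.1 RPKM. In the miR-199a-3p library, where the members' median was lowest, the summed cardiomyocyte markers were lowest too on the scaling of the deposited values. The sums of the smooth muscle and pericyte markers (1192 RPKM, median change 0.43) and of the erythroid markers were highest there. Of the 7 smooth muscle and pericyte markers 2 were at least 1.5-fold higher, against 4.81% of all genes. The part of these markers in the isoform ratios and in the members' medians was not tested.

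The remaining complex IV subunits did not share one pattern. Subunit IV is made as Cox4i1 in most tissues and as Cox4i2 mainly in lung. Cox4i1 (ENSRNOG00000017817) stood at 483 RPKM in the control, 363 with miR-199a-3p, 454 with miR-1825, 419 with miR-33b*, 464 with miR-590-3p, 445 with miR-302d-3p and 375 with miR-373-3p. Cox4i2 (ENSRNOG00000007827) stood at 0.836 RPKM in the control, 0.771 with miR-199a-3p, 1.31 with miR-1825, 1.52 with miR-33b*, 1.59 with miR-590-3p, 1.17 with miR-302d-3p and 1.67 with miR-373-3p. The general form was below the control in all 6 libraries, most after miR-199a-3p and miR-373-3p (-0.41 and -0.37), but above it with miR-302d-3p and miR-1825 (0.13 and 0.04) when scaled to the reads of listed genes. Cox4i2, from 20 to 54 reads, made up at most 0.444% of the pair. Its log2 ratio of read rates was 1.00 after miR-373-3p, with an interval of 0.23 to 1.82, and on the scale with the pseudocount it was the highest member after 4 miRNAs, at 0.33 to 0.54. At 0.836 RPKM in the control, it reached a mean of 1 RPKM only through libraries where it was higher. Its rank follows in part from that filter and is no support for a difference.

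Cox6b1, whose product sits at the contact between the units of the complex IV dimer, stands in the table under 2 identifiers between which reads could be split, so its level is uncertain. The row of higher level (ENSRNOG00000034161) stood at 587 RPKM in the control, 329 with miR-199a-3p, 414 with miR-1825, 512 with miR-33b*, 459 with miR-590-3p, 606 with miR-302d-3p and 655 with miR-373-3p. The other row (ENSRNOG00000024309) had 1.35 to 1.42 times the reads of that row in all libraries. Both were lowest after miR-199a-3p, at -0.83, and their changes differed by at most 0.04 in any library. Cox6b2, a form known from testis, had 5 to 16 reads. Cox6b2 (ENSRNOG00000038616) stood at 1.03 RPKM in the control, 1.26 with miR-199a-3p, 0.397 with miR-1825, 1.14 with miR-33b*, 0.871 with miR-590-3p, 0.613 with miR-302d-3p and 0.902 with miR-373-3p. The counting intervals of its 6 log2 ratios all included 0.

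Cox7a2 is the general form of subunit VIIa, and Cox7a2l (also known as Scaf1) encodes a related protein that links complexes III and IV. Cox7a2 (ENSRNOG00000042903) stood at 361 RPKM in the control, 203 with miR-199a-3p, 281 with miR-1825, 289 with miR-33b*, 276 with miR-590-3p, 350 with miR-302d-3p and 368 with miR-373-3p. Cox7a2l (ENSRNOG00000004526) stood at 85.7 RPKM in the control, 78.7 with miR-199a-3p, 95.2 with miR-1825, 102 with miR-33b*, 86.9 with miR-590-3p, 82.8 with miR-302d-3p and 82.9 with miR-373-3p. Cox7a2 was below the control in 5 libraries, most after miR-199a-3p (-0.83), whereas Cox7a2l stayed within 0.26 of the control in all 6. The ratio of Cox7a2l to Cox7a2 was 0.237 in the control and 0.387 after miR-199a-3p (0.366 to 0.408). A processed pseudogene of Cox7a2 takes reads of its own, and the gene had 3.70 to 4.12 times its reads over the libraries, so the level of Cox7a2 is uncertain. The changes of gene and pseudogene differed by at most 0.10.

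Cox5b, a subunit on the matrix side, differed most after miR-1825. Cox5b (ENSRNOG00000016660) stood at 303 RPKM in the control, 189 with miR-199a-3p, 147 with miR-1825, 226 with miR-33b*, 288 with miR-590-3p, 311 with miR-302d-3p and 295 with miR-373-3p. Its log2 change was -1.04 after miR-1825 and -0.68 after miR-199a-3p, and it lay within 0.07 of the control after miR-590-3p, miR-302d-3p and miR-373-3p. The other small subunits Cox5a, Cox6c, Cox7b and Cox7c lay between -0.52 and -0.60 after miR-199a-3p and between -0.30 and 0.12 in the remaining libraries. Over the 15 measured rows of complex IV the medians were -0.57, -0.11, -0.20, -0.22, -0.05 and 0.00 in the order of miRNAs above, with 6, 3, 2, 1, 1 and 1 rows at least 1.5-fold lower. As shares these are 40.0% against 5.55% of all genes after miR-199a-3p, 20.0% against 6.33% after miR-1825, 13.3% against 5.52% after miR-33b*, and 6.67% with each of the last 3, where the background was 3.49%, 7.32% and 6.56% and a count of 1 cannot be read against it. Both rows of Cox6b1 are among the 6 after miR-199a-3p, so the share of 40.0% counts that gene more than once.

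Complex II was the complex with the lowest median in every library except after miR-590-3p. Its medians over 4 genes were -0.66, -0.56, -0.24, -0.18, -0.19 and -0.17. Of the 4 genes, 2 were at least 1.5-fold lower with miR-199a-3p and 2 with miR-1825, against 5.55% and 6.33% of all genes. Counts of 2 among 4 genes are too few to be read against that background. Sdha (ENSRNOG00000013331), the flavoprotein that oxidises succinate, stood at 203 RPKM in the control, 92.2 with miR-199a-3p, 114 with miR-1825, 172 with miR-33b*, 191 with miR-590-3p, 189 with miR-302d-3p and 188 with miR-373-3p. The lowest levels were with miR-199a-3p (-1.13) and miR-1825 (-0.82), and in the other 4 libraries it lay within 0.24 of the control, on either side of it depending on the scaling with miR-302d-3p and miR-373-3p. Sdhd (ENSRNOG00000022980), a membrane anchor of the complex, stood at 226 RPKM in the control, 129 with miR-199a-3p, 135 with miR-1825, 191 with miR-33b*, 175 with miR-590-3p, 174 with miR-302d-3p and 157 with miR-373-3p. It was lower in all 6 libraries, from -0.24 to -0.81.

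Sdhb (ENSRNOG00000007967), the iron-sulfur subunit, stood at 122 RPKM in the control, 85.7 with miR-199a-3p, 99.0 with miR-1825, 123 with miR-33b*, 111 with miR-590-3p, 121 with miR-302d-3p and 113 with miR-373-3p. Sdhc (ENSRNOG00000003163), the other membrane anchor, stood at 160 RPKM in the control, 123 with miR-199a-3p, 122 with miR-1825, 122 with miR-33b*, 136 with miR-590-3p, 132 with miR-302d-3p and 138 with miR-373-3p. Sdhb was at -0.51 with miR-199a-3p and -0.30 with miR-1825 and within 0.14 elsewhere, while Sdhc was evenly lower, between -0.21 and -0.39. Thus the flavoprotein and Sdhd differed from the control more than their partners in both of those libraries.

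The 4 assembly factors of complex II differed from each other. Sdhaf2 (ENSRNOG00000020646), which helps to attach the flavin to Sdha, stood at 28.2 RPKM in the control, 12.9 with miR-199a-3p, 25.4 with miR-1825, 15.5 with miR-33b*, 23.3 with miR-590-3p, 25.1 with miR-302d-3p and 26.9 with miR-373-3p. It was lower after miR-199a-3p (-1.07) and miR-33b* (-0.82), the former shared with Sdha and the latter not. Sdhaf4 (ENSRNOG00000028087), a chaperone of flavinylated Sdha, stood at 16.5 RPKM in the control, 21.8 with miR-199a-3p, 10.7 with miR-1825, 19.1 with miR-33b*, 17.2 with miR-590-3p, 19.2 with miR-302d-3p and 19.2 with miR-373-3p. It was the only measured member above the control after miR-199a-3p (0.38), and it was lower after miR-1825 (-0.59), on 90 to 210 reads. Sdhaf3 (ENSRNOG00000011283) stood at 7.35 RPKM in the control, 7.25 with miR-199a-3p, 7.46 with miR-1825, 6.03 with miR-33b*, 8.83 with miR-590-3p, 8.19 with miR-302d-3p and 7.61 with miR-373-3p. Sdhaf3, from 69 to 145 reads, lay within 0.25 of the control, and Sdhaf1 lay between -0.39 and 0.01.

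In complex III the medians over 8 genes were -0.52, -0.44, -0.12, -0.09, -0.07 and -0.05, and all 8 were below the control in the first 2 of these libraries. Uqcrq (ENSRNOG00000048174), a small subunit, stood at 16.9 RPKM in the control, 9.45 with miR-199a-3p, 3.37 with miR-1825, 16.9 with miR-33b*, 16.9 with miR-590-3p, 18.1 with miR-302d-3p and 21.5 with miR-373-3p. The value after miR-1825 stood apart: it came from 135 reads against 572 in the control, a log2 ratio of read rates of -2.32 (interval -2.61 to -2.05). The row is at a low level for a subunit of this complex, whose highest mean was 316 RPKM, and its length behind the RPKM is 1494 bases. Whether this row covers the gene's main transcript was not tested, so both its level and its difference after miR-1825 are uncertain. After miR-199a-3p its change was -0.78, and after miR-373-3p 0.33, so it was both the lowest and among the highest members in different libraries.

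Uqcrc1 (ENSRNOG00000032134), a core subunit, stood at 202 RPKM in the control, 138 with miR-199a-3p, 143 with miR-1825, 128 with miR-33b*, 178 with miR-590-3p, 184 with miR-302d-3p and 186 with miR-373-3p. It was at least 1.5-fold lower after miR-33b* alone (-0.66) and at -0.55 and -0.50 with miR-199a-3p and miR-1825. Uqcrb (ENSRNOG00000024967), a subunit near the ubiquinone site, stood at 18.3 RPKM in the control, 13.1 with miR-199a-3p, 16.3 with miR-1825, 22.7 with miR-33b*, 19.3 with miR-590-3p, 16.4 with miR-302d-3p and 19.1 with miR-373-3p. It was above the control after miR-33b* (0.30), from 366 to 602 reads, in the library where Uqcrc1 was lowest. Cyc1 (ENSRNOG00000012457), the haem subunit cytochrome c1, stood at 256 RPKM in the control, 182 with miR-199a-3p, 182 with miR-1825, 191 with miR-33b*, 230 with miR-590-3p, 254 with miR-302d-3p and 230 with miR-373-3p. It was lower after miR-199a-3p, miR-1825 and miR-33b* (-0.50, -0.49 and -0.42) and within 0.16 after the others. The core subunit Uqcrc2 was at -0.61 after miR-1825, and Uqcr10 at -0.59 after miR-199a-3p. Uqcrfs1, the Rieske iron-sulfur protein, and Uqcrh, the hinge protein, were at -0.52 and -0.43 after miR-199a-3p, both at -0.33 after miR-1825, and between -0.21 and 0.21 elsewhere.

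Cytochrome c, the soluble carrier between complexes III and IV, also stands in the table under 2 identifiers between which reads could be split, so its level is uncertain. The first (ENSRNOG00000010452) stood at 573 RPKM in the control, 415 with miR-199a-3p, 500 with miR-1825, 510 with miR-33b*, 603 with miR-590-3p, 565 with miR-302d-3p and 568 with miR-373-3p. The second (ENSRNOG00000032885) stood at 945 RPKM in the control, 687 with miR-199a-3p, 841 with miR-1825, 898 with miR-33b*, 993 with miR-590-3p, 977 with miR-302d-3p and 946 with miR-373-3p. In both rows the lowest value was after miR-199a-3p (-0.47 and -0.46) and the highest after miR-590-3p (0.07). The changes of the 2 rows differed by at most 0.09.

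**Figure D4:**
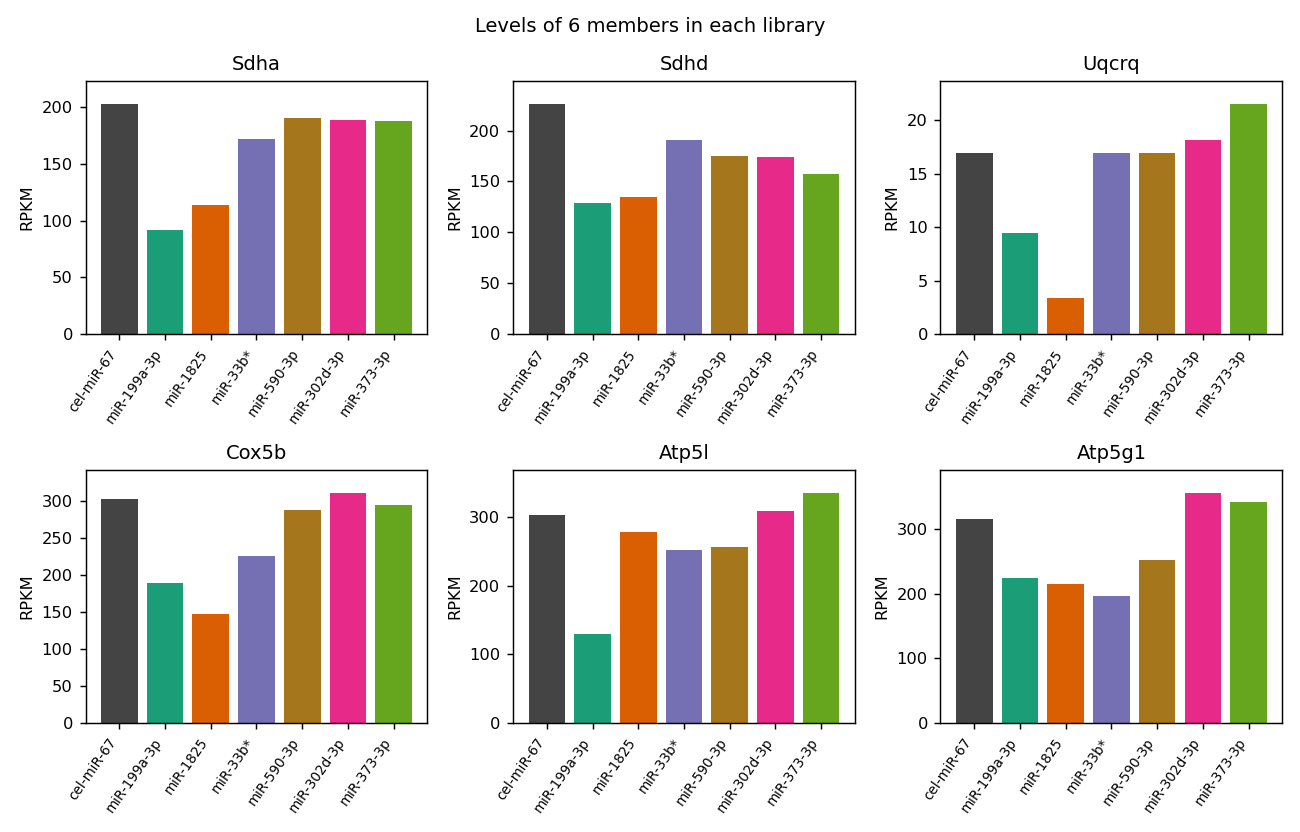
RPKM of Sdha, Sdhd, Uqcrq, Cox5b, Atp5l and Atp5g1 in each of the 7 libraries, as bars from 0 with 1 library per bar and no error bar. Sdha is lowest with miR-199a-3p and miR-1825, Uqcrq, an uncertain row, after miR-1825 (3.37 RPKM), Atp5l after miR-199a-3p (130 RPKM) and Atp5g1 after miR-33b* (197 RPKM).

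The complex V medians were -0.44, -0.35, -0.13, -0.12, 0.03 and -0.01 over 16 rows. On the scaling of the deposited values all 16 were below the control after miR-199a-3p, where 3 were at least 1.5-fold lower, and all 16 after miR-1825, where 1 was. Those are 18.8% and 6.25% of the rows, against 5.55% and 6.33% of all genes, so the second share is at the background. Scaled to the reads of listed genes not all 16 were below: Atp5c1 was at 0.07 with miR-199a-3p and at 0.10 with miR-1825. Atp5l (ENSRNOG00000028884), subunit g of the membrane part, stood at 304 RPKM in the control, 130 with miR-199a-3p, 278 with miR-1825, 252 with miR-33b*, 257 with miR-590-3p, 309 with miR-302d-3p and 336 with miR-373-3p. Its value after miR-199a-3p was the lowest change of any member in that library (-1.22, interval -1.31 to -1.14), while in the other 5 libraries it lay between -0.27 and 0.14. Atp5c1 (ENSRNOG00000019223), the gamma subunit of the central stalk, stood at 30.7 RPKM in the control, 25.2 with miR-199a-3p, 30.1 with miR-1825, 32.1 with miR-33b*, 31.1 with miR-590-3p, 31.7 with miR-302d-3p and 30.5 with miR-373-3p. Atp5c1 was the complex V gene nearest to the control, with changes from -0.28 to 0.06.

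The c subunit, which forms the rotor ring, is made as the same mature protein from Atp5g1, Atp5g2 and Atp5g3. Atp5g1 (ENSRNOG00000007235) stood at 317 RPKM in the control, 225 with miR-199a-3p, 216 with miR-1825, 197 with miR-33b*, 253 with miR-590-3p, 357 with miR-302d-3p and 343 with miR-373-3p. It was lowest after miR-33b* (-0.68) and miR-1825 (-0.55) and above the control with miR-302d-3p and miR-373-3p (0.17 and 0.11). Of the summed RPKM of the 3 genes Atp5g1 made up 36.1% in the control, 26.6% after miR-33b*, 30.7% after miR-1825 and 39.9% after miR-302d-3p. The ratio of Atp5g1 to Atp5g3 was 0.762 in the control (interval 0.733 to 0.792) and 0.469 after miR-33b* (0.448 to 0.491). Atp5g3 was within 0.02 of the control there, so the difference of the ratio lay with Atp5g1.

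Atp5i (ENSRNOG00000000064), subunit e of the membrane part, stood at 44.3 RPKM in the control, 33.3 with miR-199a-3p, 27.1 with miR-1825, 33.1 with miR-33b*, 32.4 with miR-590-3p, 47.6 with miR-302d-3p and 50.3 with miR-373-3p. It was lower after miR-1825 (-0.69), miR-590-3p (-0.44), miR-33b* (-0.41) and miR-199a-3p (-0.40), from 210 to 477 reads. Among the catalytic subunits Atp5a1 and Atp5b were at -0.46 and -0.44 after miR-199a-3p and at -0.46 and -0.51 after miR-1825. Atp5f1, subunit b of the stator, has 2 rows of equal length, 2579 bases, whose reads stood in a ratio of 0.521 to 0.528 in all libraries, so its level is uncertain; their changes differed by at most 0.01. The other complex V subunit genes not described one by one (Atp5d, Atp5e, Atp5g2, Atp5h, Atp5j, Atp5j2 and Atp5o) lay between -0.66 and 0.19, both ends being Atp5j2, with miR-199a-3p and miR-373-3p. Atp5s and Atp5sl, at means of 2.99 and 7.40 RPKM, lay between -0.36 and 0.23.

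**Figure D5:**
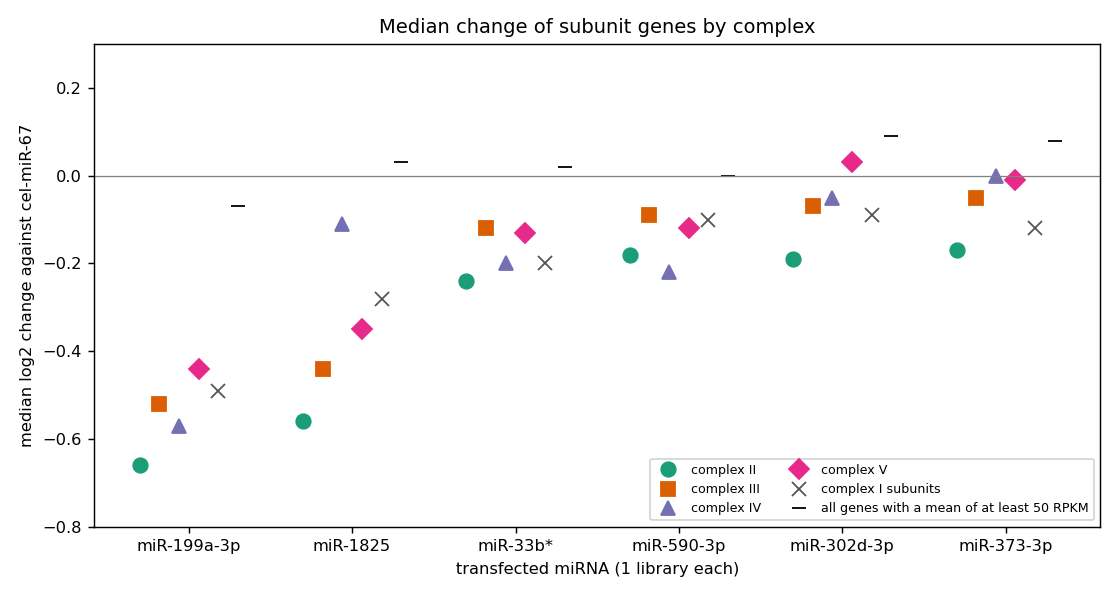
Median log2 change of the measured genes of complexes II, III, IV and V, of complex I (by Nduf symbol), and of all genes whose mean reached 50 RPKM (dashes), after each of the 6 miRNAs, with 1 library each. The medians of all 4 complexes lie at or below -0.44 after miR-199a-3p, and those of complexes II, III and V at or below -0.35 after miR-1825, while complex IV is at -0.11.

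Related genes outside the set were read on the same scale. The 32 measured genes taken as complex I had medians of -0.49, -0.28, -0.20, -0.10, -0.09 and -0.12, with 11 at least 1.5-fold lower with miR-199a-3p and 2 with miR-1825 and none past the limit otherwise. They were taken by their Nduf symbols alone, Ndufa4 (-0.60 after miR-199a-3p) among them, and were not checked singly for the complex. The first count is 34.4% of the list against 5.55% of all genes, and the second, 6.25% against 6.33%, is at the background. These Nduf genes thus had the same median as the members after miR-199a-3p. The 31 measured assembly factors of complexes II to V, leaving out the 4 that are members, had medians of -0.19, -0.05, -0.03, -0.01, 0.04 and 0.02. Past the limit were Coa5, an assembly factor of complex IV (33.9 RPKM in the control, 9.91 after miR-199a-3p, -1.68), and Taco1 (-0.59), both lower after miR-199a-3p. These 2 are 6.45% of the list, against 5.55% of all genes, so the count is near the background.

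The 6 subunits of complexes III to V encoded in the mitochondrial genome were lower than in the control in all 6 libraries, except that Mt-atp6 was above it with miR-1825 when scaled to the reads of listed genes. Their medians were -1.14, -0.33, -0.31, -0.18, -0.62 and -0.46, with 6 at least 1.5-fold lower after miR-199a-3p, 5 with miR-302d-3p and 1 with miR-373-3p, and with that scaling 5, 0 and 0. As shares the first counts are 100%, 83.3% and 16.7%, against 5.55%, 7.32% and 6.56% of all genes. The count of 1 cannot be read against the background. With that scaling the 5 after miR-199a-3p are 83.3%, against 2.04%. Mt-co1, the catalytic subunit of complex IV, was at 18554 RPKM in the control, 9813 after miR-199a-3p and 10556 after miR-302d-3p. After miR-302d-3p these genes thus stood lower while the nuclear members' median was -0.01. Reads of the mitochondrial genome took 41.0% of all listed reads in the control and 27.7% (miR-199a-3p) to 41.4% (miR-590-3p) in the others, and 22616067 to 31963293 reads per library lay in listed genes. With scaling to reads outside the mitochondrial genome the members' medians were -0.43 with miR-199a-3p and -0.33 with miR-1825. The members took 2.16% of the reads outside the mitochondrial genome in the control, 1.58% after miR-199a-3p, 1.65% after miR-1825, 1.92% after miR-33b*, 2.01% after miR-590-3p, 2.16% with miR-302d-3p and 2.11% with miR-373-3p.

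The pair miR-302d-3p and miR-373-3p, which belong to miRNA families known to have a common seed, were also set against each other. They are different agents and not replicates, and since their changes share the control, the 2 libraries were compared directly. The difference between them over the 51 members had a median of 0.00 and an SD of 0.143, and no member was 1.5-fold apart, where 2.40% of all 12330 genes were. At that share a count of 0 among 51 is near the background. The ends of the range were Cox8b, at -0.53 in miR-302d-3p relative to miR-373-3p, and Cox4i1, at 0.25.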

How the data were processed

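The authors deposited RPKM values for 17141 genes in 7 libraries, with Ensembl identifiers and symbols, per the file headers; per the submitters' processing notes the tools STAR 2.7 and edgeR and the build Rnor_6.0 were used, without a stated role. Annotation, counter, strand setting and filters: not given in the sources used here. All 7 single files equalled the series table.

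RPKM carries depth: a length per gene and a size per library under which all values are whole reads (within 0.0020) were found for 100% of genes, and those reads gave the exact 95% intervals of ratios between 2 libraries or 2 genes. The method was tested on simulated data. Reads in listed genes were 85.5% to 110% of the library size behind the values, so that size carries a further factor per library. Such intervals leave out differences between cultures, which the labels do not number.

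Changes were log2(RPKM + 1) minus that of cel-miR-67, for the 12330 genes whose mean reached 1 RPKM. With 1 library per group nothing was tested. Members and lists were chosen with earlier results of these data known. Values in every library are given for the isoform genes, Sdha to Sdhd, Cyc1, Cycs, the 3 lowest and 2 highest members per miRNA, and per complex the 2 lowest and 1 highest by mean change. Cox5b and Sdhaf1 were added after their values were seen, as were the other genes given by single values. The 5 gene lists were complex I subunits, assembly factors (32 of 41 matched with a row outside the members), mitochondrially encoded subunits, regulators of respiratory genes, and carrier and exchange partners of ATP synthase. The 7 marker lists were those of cardiomyocytes, fibroblasts, endothelium, smooth muscle and pericytes, macrophages and leukocytes, erythroid cells and skeletal muscle.

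Alternatives were pseudocounts of 0.1 and 5, scaling to listed reads or to those outside the mitochondrial genome, centring on protein-coding genes, the other 5 miRNA libraries as reference, and a filter at 5 RPKM or none. Positions on Rnor_6.0 and protein sequences were not used here. Python 3.11.15, numpy 2.4.6, scipy 1.17.1, pandas 2.3.3 and matplotlib 3.10.9 were used.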

Additional observations from a re-analysis of the deposited data

How the results depend on the processing

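With the other 5 miRNA libraries as reference, which asks how a library differs from the other miRNAs and not from the control, the members' median was -0.37 with miR-199a-3p, -0.16 with miR-1825, 0.06 with miR-33b*, 0.09 with miR-590-3p, 0.23 with miR-302d-3p and 0.18 with miR-373-3p, so 4 of 6 changed sign. The members at least 1.5-fold lower then numbered 8 after miR-199a-3p, 3 after miR-1825, 0 after miR-33b* and 0 after miR-590-3p. The share of all genes past the limit with this reference is not given here, so these counts are not read as a result about the members. Cox6a2 stood at 0.24 in the miR-590-3p library. The isoform ratios, all negative on the log2 scale against the control, turned positive in some libraries. Cox6a2 to Cox6a1 stood at 0.42 (miR-590-3p), 0.13 (miR-199a-3p) and 0.12 (miR-373-3p). Cox8b to Cox8a stood at 1.59 (miR-590-3p) and 1.61 (miR-199a-3p). In the remaining libraries each ratio stayed negative with this reference. Scaled to listed reads, the medians came to -0.14 with miR-199a-3p, -0.20 with miR-1825, 0.24 with miR-302d-3p and 0.17 with miR-373-3p, and 4, 3 and 0 members were lower past the limit with miR-199a-3p, miR-33b* and miR-590-3p. Scaled to reads outside the mitochondrial genome, the medians of miR-302d-3p and miR-373-3p were 0.0083 and 0.0014, on the other side of 0 from -0.0061 and -0.0130. The 1 member past the limit after miR-590-3p was lost (0) with that scaling and with a pseudocount of 5. The count of members at least 1.5-fold higher was 1 in place of 0 with a pseudocount of 0.1 (miR-1825, miR-33b*, miR-590-3p and miR-373-3p), with listed reads (miR-199a-3p and miR-373-3p), with reads outside the mitochondrial genome (miR-590-3p and miR-373-3p) and with the other 5 libraries as reference (miR-199a-3p, miR-590-3p, miR-302d-3p and miR-373-3p). A count of 1 cannot be read against a background. The cause of these moves was not tested. The ratios of Cox6a2 to Cox6a1 and of Cox8b to Cox8a kept their direction against the control with both other pseudocounts in all 12 cases. With a pseudocount of 5, 4 of the 12 moved beyond their counting interval, all of them Cox8b to Cox8a: from -1.88 to -1.38 with miR-1825, -1.63 to -1.24 with miR-33b*, -2.98 to -2.03 with miR-302d-3p and -2.22 to -1.60 with miR-373-3p. No paired analysis was possible because each group has 1 library.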

Other observations

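The 17 regulators of respiratory genes were measured in all libraries and had medians of -0.00, -0.01, -0.00, -0.07, -0.11 and -0.07 after miR-199a-3p, miR-1825, miR-33b*, miR-590-3p, miR-302d-3p and miR-373-3p. Esrrg, an oestrogen-related receptor of heart muscle, was at 6.56 RPKM in the control and 3.96 to 4.90 RPKM in the 6 others, with changes from -0.61 to -0.36. On the scaling of the deposited values the muscle factor Mef2d was also below the control in all 6 libraries, at 6.46 RPKM there and 4.24 to 5.36 RPKM in the others. With miR-199a-3p its change was -0.23, and the median gene moved to 0.302 when scaled to the reads of listed genes, so Mef2d could pass the control there. Mef2c was at 4.97 RPKM in the control, 2.56 after miR-302d-3p and 3.28 after miR-373-3p (-0.75 and -0.48), and at 5.56 and 5.75 after miR-199a-3p and miR-590-3p. Tfb2m, a transcription factor of the mitochondrial genome, was at 19.2 RPKM in the control and 10.8 after miR-199a-3p (-0.77). Ppargc1a, the coactivator PGC-1 alpha, was above the control there, at 10.4 against 6.27 RPKM (0.65), and Esrrb was higher after miR-1825 and miR-33b* (0.75 and 0.72), at 3.24 and 3.15 RPKM. Esrrg, Mef2c, Ppargc1a and the others were picked from the list after their values were seen.

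The 9 measured carriers and exchange partners of ATP synthase had medians of -0.18, -0.01, 0.00, 0.05, 0.12 and 0.07. On the scaling of the deposited values all 9 were below the control after miR-199a-3p. The 1 past the limit of 1.5-fold was Minos1, a gene of the inner membrane contact sites, at 106 RPKM in the control and 163 after miR-33b* (0.62). That is 11.1% of the list, against 5.17% of all genes, and a count of 1 cannot be read against it. Atpif1, the inhibitor of the ATP synthase, was at 111 RPKM in the control and 151 after miR-33b* (0.44). The heart adenine nucleotide carrier Slc25a4 was at 672 RPKM in the control and 548 after miR-199a-3p (-0.29).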
